A study of Mus musculus with 62 samples.

Results

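The dorsal hippocampus (dHPC) of mice given a single injection of ethanol was compared with that of mice given a single injection of saline. Of the 62 RNA sequencing libraries of the study, the 7 that the labels give as dHPC and acute were used, 4 after ethanol (replicates 2, 3, 4 and 5) and 3 after saline (replicates 2, 4 and 5), each from a different mouse. All were male C57BL/6J mice, an inbred strain, of 8 to 10 weeks of age. The acute ethanol group had received 2 g/kg ethanol in saline by intraperitoneal injection, the acute saline group an equal volume of saline, and tissue was taken 4 h later. Both groups were thus injected and handled, and no uninjected mice were compared. The clock time of injection is not given in the sources used here. The mice of 2 further dHPC groups, given 10 daily injections of saline or ethanol (chronic, 3 libraries each), are used below only to set their values beside the acute ones. All samples were punches cored from coronal slices of snap-frozen brain, so every level is a mean over the cell types in the punch. In such bulk samples, fewer cells of a type and less RNA per cell cannot be told apart.

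The 7 libraries held 44391219 to 58483586 counts on genes and detected 29696 to 32214 genes, and mitochondrial genes took 4.68% to 6.14% of the counts. The correlation of log2 CPM (counts scaled to a common library total) between any pair of the 7 libraries lay between 0.991 and 0.996 over 18476 genes. The dHPC libraries came from a kit that does not mark strand, so reads of a gene and of an antisense partner that overlaps it cannot be told apart. The named genes that this touches are listed after the 11 calls below. Values are given throughout in the order saline replicates 2, 4 and 5, then ethanol replicates 2, 3, 4 and 5, as CPM on library sizes scaled by TMM, a method that equalises the bulk of the genes between libraries.

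The hippocampus is built of the dentate gyrus, whose granule neurons project to field CA3, and of the fields CA2 and CA1, and it serves spatial and contextual memory. Ethanol acts there directly on GABA-A and NMDA receptors and indirectly by raising circulating corticosterone, the glucocorticoid of mice. Glucocorticoids enter the cell, bind the receptor encoded by Nr3c1 and switch on genes with a palindromic response element, among them Sgk1, Fkbp5, Tsc22d3 and Per1, the last of these also a part of the circadian clock.

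The windows before the start sites of 4 genes described below are shown because each carries the recognition letters of a regulator of its class. The sequences are the 250 bases upstream of a RefSeq start site, read 5′ to 3′ on the strand of the gene, from a RefSeq promoter table on GRCm38.p6, and each was placed by an exact match to a single site in GRCm39. Capitals mark the motif. In Sgk1 (chr10:21869539-21869788, plus strand, 1 of its 6 start sites in the table) they mark the glucocorticoid response element, the letters AGAACA followed after any 3 bases by their reverse complement TGTTCT. In Mt2 (chr8:94898996-94899245, plus strand) they mark the metal response element cores TGCACNC and TGCGCNC on either strand. In Ciart (chr3:95789541-95789790, minus strand) they mark the E-box CACGTG, to which CLOCK and BMAL1 bind. In Cdkn1a (chr17:29309703-29309952, plus strand, 1 of 2 start sites) they mark the core of a p53 site, CATG followed after any 6 bases by CATG.
Sgk1: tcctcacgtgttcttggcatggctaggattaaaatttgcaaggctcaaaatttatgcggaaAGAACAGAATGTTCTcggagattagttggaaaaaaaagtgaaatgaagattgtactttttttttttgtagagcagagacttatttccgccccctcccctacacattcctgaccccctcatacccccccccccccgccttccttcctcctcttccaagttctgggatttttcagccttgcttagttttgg
Mt2: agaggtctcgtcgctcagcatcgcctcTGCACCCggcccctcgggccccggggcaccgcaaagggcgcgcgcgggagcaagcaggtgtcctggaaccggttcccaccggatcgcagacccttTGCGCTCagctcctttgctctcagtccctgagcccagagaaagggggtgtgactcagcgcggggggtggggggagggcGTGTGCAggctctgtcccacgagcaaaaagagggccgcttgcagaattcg
Ciart: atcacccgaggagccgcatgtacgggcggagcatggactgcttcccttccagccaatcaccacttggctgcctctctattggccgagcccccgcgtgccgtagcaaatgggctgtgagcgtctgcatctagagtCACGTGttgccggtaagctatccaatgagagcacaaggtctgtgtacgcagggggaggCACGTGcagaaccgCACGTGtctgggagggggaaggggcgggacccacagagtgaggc
Cdkn1a: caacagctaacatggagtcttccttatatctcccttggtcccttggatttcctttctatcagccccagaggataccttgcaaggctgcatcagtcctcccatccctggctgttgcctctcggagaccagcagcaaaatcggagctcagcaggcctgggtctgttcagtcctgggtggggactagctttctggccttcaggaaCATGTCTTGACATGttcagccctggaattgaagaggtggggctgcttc

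On both strands, the glucocorticoid element was present in 3 of 32851 such windows (0.00913%), those of Sgk1, Acnat2 and Gm35041. TGCACNC was present in 10.4% of the windows, TGCGCNC in 12.5%, CACGTG in 6.02% and the p53 core in 0.49%. Of the 22 genes in the glucocorticoid list below, 18 had a window, and only that of Sgk1 held the full palindrome. A match is a description of these letters and not a binding site, and the windows were chosen after the values of the genes had been seen.

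The label of the tissue was checked first. In the saline libraries, markers of dentate granule neurons stood higher in the dHPC than in the cortex, a region of the same library kit and sequencer. The transcription factor Prox1 was at a mean of 130 CPM in the dHPC and 11.4 in the cortex (here on unscaled library totals), desmoplakin (Dsp) at 98.2 against 0.252, and C1ql2 at 74.6 against 0.497. Fibcd1 and Spink8, expressed in CA1, were at 89.5 against 9.51 CPM and at 10.6 against 0.315 CPM. Not every list member was particular to the hippocampus, since Wfs1, Lypd1, Pcp4, Coch and Pdzd2, among others, were higher in at least 1 other region.

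Genes used as markers of striatal projection neurons, a cell type of another region, were present and unequal between libraries. The 16 list genes were not silent outside the striatum. On unscaled library totals, they summed to 751 CPM in the saline cortex and 720 CPM in the saline ventral hippocampus. The summed CPM of the 16 list genes was 1612, 1245 and 1039 after saline and 831, 671, 1137 and 608 after ethanol. Saline replicate 2 was the highest of the 7 libraries, and ethanol replicate 4 lay within the saline range, so the groups overlapped. Relative to the mean of the saline libraries of the dorsal striatum (DS), these sums correspond to 15.7%, 12.1% and 10.1% after saline. After ethanol they correspond to 8.12%, 6.54%, 11.1% and 5.91%. The libraries of the DS and ventral hippocampus came from another kit, which marks strand, and another sequencer. Levels set against them, here and in the DS ratios below, therefore also carry differences of method, whose size was not tested. The paper kept its own quantitative comparisons within a region for this reason. The order of the dHPC libraries is not affected, since all share the same denominator. The difference of the mean CPM sums was −487 CPM, with an exact permutation p of 0.0857 (two-sided, 35 arrangements, smallest possible p 0.0286).

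All 16 genes were lower after ethanol, with a median log2 fold change of −0.83. The dopamine receptor gene Drd1 was at 29.2, 21.2 and 16.1 CPM after saline and at 11.3, 8.00, 19.3 and 6.89 CPM after ethanol (log2 fold change −0.96 ± 0.31 SE, edgeR FDR 0.464). Ppp1r1b, which encodes the dopamine-regulated phosphatase inhibitor DARPP-32, was at 249, 206 and 168 CPM and at 135, 111, 196 and 113.1 CPM (−0.58 ± 0.19, edgeR FDR 0.467). In both genes ethanol replicate 4 stood with the saline libraries and the other 3 ethanol libraries below them. Over the whole table, 374 of 26215 tested genes (1.43%) were at least 4-fold higher in the saline DS than in the saline dHPC, and 246 of them were lower after ethanol, with a median log2 fold change of −0.19 against −0.00 for the other genes. A gene that is high in the striatum and lower after ethanol is therefore marked as such below.

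Other neighbours of the hippocampus also varied. Markers of thalamic neurons summed to 179, 209 and 323 CPM after saline and 351, 284, 498 and 242 CPM after ethanol, and all 8 genes were higher on average after ethanol (median log2 fold change 0.46), though none passed a test. Ethanol replicate 4 was the highest and saline replicate 2 the lowest of the 7 libraries, and the groups overlapped. Prkcd, a kinase of thalamic relay neurons, was at 32.0, 35.9 and 89.7 CPM and at 98.8, 80.6, 161 and 70.5 CPM. Choroid plexus markers summed to 2117 to 3441 CPM after saline and 1500 to 4171 CPM after ethanol, a spread that was wider within the groups than between them. The CA1 sum was 554, 529 and 513 CPM after saline and 529, 744, 382 and 689 CPM after ethanol, so that the ethanol group held both the lowest and the highest library, and the dentate sum was 537 to 620 CPM and 524 to 717 CPM.

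**Figure D1:**
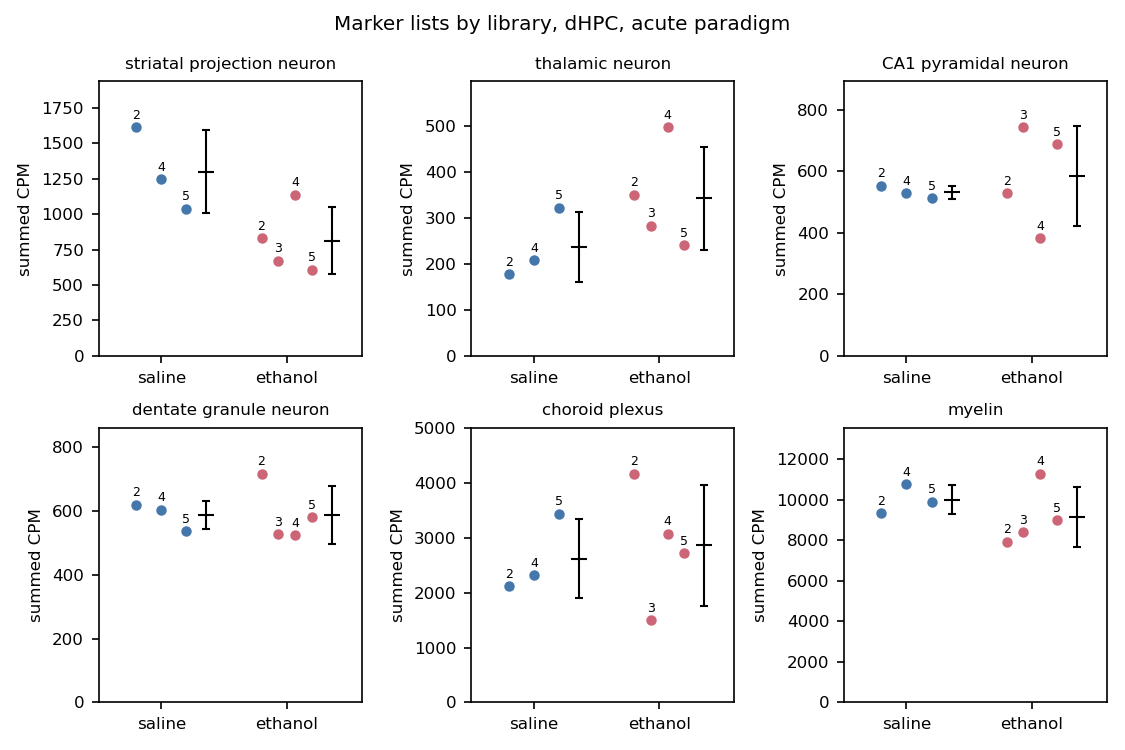
Summed CPM (vertical axes, from 0) of 6 marker lists in each dHPC library of the acute paradigm, with replicate numbers beside the points and bars for the mean ± SD of each group (n = 3 saline, n = 4 ethanol). The striatal sum runs from 1039 to 1612 after saline and from 608 to 1137 after ethanol, while thalamic markers run the other way and the CA1 and dentate sums overlap.

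Of 26215 genes tested, 11 passed edgeR's quasi-likelihood test at a Benjamini-Hochberg FDR below 0.1 (0.042% of genes tested), of which 7 rose (0.0267%) and 4 fell (0.0153%) after ethanol. Of the 11, 10 share 1 adjusted p of 0.0956, and only Lrrc8a lay lower, at 0.0470. The rises were genes of a volume-regulated anion channel, an astrocyte gap junction, a lipid transporter, a transcriptional repressor and an adhesion molecule, and the falls were genes of galactolipid synthesis, fibroblast growth factor signalling, protein degradation and DNA replication. In each of the 11 genes the 3 saline and 4 ethanol libraries did not overlap, which held for 8.16% of all genes tested (3.74% higher and 4.42% lower after ethanol). DESeq2's Wald test, the test of the study's methods, called 281 genes (1.07%), 141 higher and 140 lower, and these include all 11.

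Lrrc8a encodes the obligatory subunit of the volume-regulated anion channel, through which swollen cells release chloride and small organic molecules. It was at 35.4, 38.0 and 35.8 CPM after saline and at 51.9, 53.3, 52.4 and 49.5 CPM after ethanol. The lowest ethanol library stood well above the highest saline library, and the libraries of each group lay close together. Lrrc8a rose by a log2 fold change of 0.51 ± 0.06 (SE, edgeR FDR 0.0470, DESeq2 FDR 4.07e-11). Gm28035, a gene model on the same strand whose exons overlap those of Lrrc8a, rose by 0.46 ± 0.07 (edgeR FDR 0.0956), and its counts were 1.04 to 1.18 times those of Lrrc8a in the 7 libraries, so both may count the same reads, and the 11 calls hold both.

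The values of the other tested subunits Lrrc8b, Lrrc8c and Lrrc8d lay nearer to 0 than that of Lrrc8a. Lrrc8c was at 29.4, 28.2 and 26.8 CPM after saline and at 33.0, 32.5, 30.9 and 33.6 CPM after ethanol, a difference of 0.21 ± 0.06 on the log2 scale that passed neither test (edgeR FDR 0.407, DESeq2 FDR 0.154), though the groups did not overlap. Lrrc8b differed by −0.05 and Lrrc8d by 0.00 on the same scale. Of the 13 tested genes in the list of the channel and of cell volume regulation, Lrrc8a alone passed a test, and the median log2 fold change was −0.04.

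Gjb6 encodes connexin 30, which joins astrocytes into a coupled network. Its level was 41.0, 42.1 and 35.9 CPM after saline and 58.9, 53.5, 57.3 and 55.4 CPM after ethanol. All 4 ethanol libraries stood above all 3 saline libraries, and Gjb6 rose by 0.50 ± 0.07 (edgeR FDR 0.0956). The 10 genes of the astrocyte list had a median log2 fold change of 0.05, 6 were higher and 4 lower, and no other passed either test. Connexin 43 (Gja1) differed by −0.03, the water channel Aqp4 by −0.18 and the folate enzyme Aldh1l1 by 0.24 on the log2 scale.

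Mfsd2a, which carries lysophosphatidylcholine with docosahexaenoic acid across the blood-brain barrier, was at 17.2, 20.6 and 16.4 CPM after saline and at 28.2, 26.8, 27.6 and 27.0 CPM after ethanol. The ethanol libraries lay within a narrow band above all saline libraries, and Mfsd2a rose by 0.60 ± 0.08 (edgeR FDR 0.0956). Markers of the endothelial cells that line the barrier were mostly lower in value. Of their 8 list genes, 7 were lower, with a median log2 fold change of −0.12, and the receptor Tek, at 10.8, 11.8 and 11.7 CPM after saline and 9.31, 9.67, 5.87 and 5.94 CPM after ethanol, passed DESeq2's test but not edgeR's (−0.57 ± 0.17, DESeq2 FDR 0.0949, edgeR FDR 0.441). Ethanol replicates 4 and 5 had the lowest Tek values.

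Kirrel2 encodes a nephrin-like adhesion molecule and was the largest rise of the 7. It was at 7.44, 7.36 and 6.37 CPM after saline and at 10.9, 12.2, 10.0 and 11.6 CPM after ethanol, without overlap, a rise of 0.67 ± 0.10 (edgeR FDR 0.0956). Its relatives Kirrel1, Kirrel3 and Nphs1 differed by −0.04, −0.02 and 0.04 on the log2 scale.

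Mxd4, which encodes a partner of MAX that opposes MYC, was at 87.9, 89.3 and 85.7 CPM after saline and at 117, 106, 114 and 115 CPM after ethanol. Mxd4 rose by 0.37 ± 0.05 (edgeR FDR 0.0956), the smallest rise of the 7. The antisense gene Mxd4os1 held 0.130 to 0.156 times the counts of Mxd4 in these libraries but 0 to 0.00293 times in the strand-marked libraries of the ventral hippocampus (vHPC), DS and ventral striatum (VS). Lurap1l was at 21.6, 23.4 and 21.5 CPM and at 33.1, 33.3, 27.6 and 32.6 CPM, a rise of 0.52 ± 0.08 (edgeR FDR 0.0956). In Lurap1l, ethanol replicate 4 stood below the other ethanol libraries and above every saline library.

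Ugt8a encodes the enzyme that adds galactose to ceramide, the step that makes the galactolipids of myelin. It was at 81.2, 87.0 and 77.3 CPM after saline and at 55.9, 50.7, 60.3 and 47.8 CPM after ethanol. Every ethanol library lay below every saline library, and Ugt8a fell by 0.61 on the log2 scale (SE 0.08, edgeR FDR 0.0956). Its level in the saline DS was 0.88 times that in the saline dHPC.

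Fgfr2, a receptor for fibroblast growth factors that oligodendrocytes carry, was at 62.0, 65.6 and 63.4 CPM after saline and at 51.6, 46.2, 46.8 and 42.7 CPM after ethanol, a fall without overlap (log2 fold change −0.44 ± 0.07, edgeR FDR 0.0956). Fbxo32 encodes atrogin-1, an F-box protein of a ubiquitin ligase, and was at 35.1, 35.8 and 34.1 CPM and at 23.4, 23.4, 28.0 and 24.6 CPM. The saline libraries of Fbxo32 were nearly equal and ethanol replicate 4 was the nearest to them, and the gene fell by 0.49 on the log2 scale (SE 0.07, edgeR FDR 0.0956).

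Clspn encodes claspin, an adaptor of the DNA replication checkpoint, and was the largest fall of the 4 but at a low level. It was at 3.60, 3.89 and 3.42 CPM after saline and at 1.35, 1.38, 1.98 and 1.84 CPM after ethanol, without overlap (log2 fold change −1.15 ± 0.17, edgeR FDR 0.0956). Clspn was 7.39-fold higher in the saline DS than in the saline dHPC, the only one of the 11 genes past 4-fold. The other 17 genes of the replication and checkpoint list passed no test, among them Chek1 (−0.21), Mcm2 (0.02) and Tipin (−0.38).

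**Figure D2:**
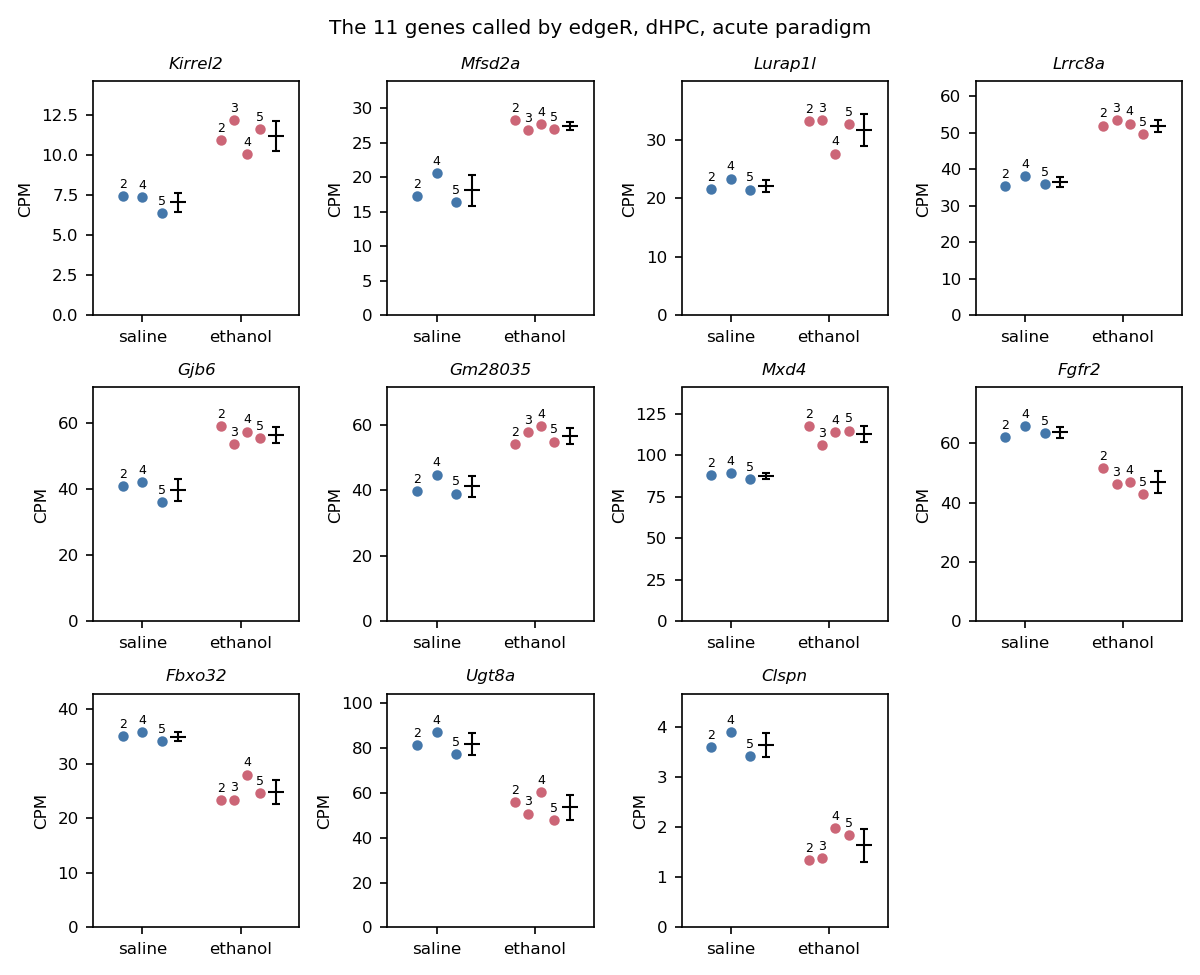
CPM (vertical axes, from 0) of the 11 genes that passed edgeR's test, in each dHPC library of the acute paradigm, with replicate numbers beside the points and bars for the mean ± SD (n = 3 saline, n = 4 ethanol). No ethanol point reaches the saline range in any panel.

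Some of the named genes overlap a gene on the other strand, whose reads this kit cannot set apart. Among the 11 calls these are Lrrc8a (with 1700084E18Rik, at 0.0264 to 0.0364 times its counts), Mfsd2a (with 4933421A08Rik), Mxd4 and Fbxo32 (with Gm15943). Among the genes described further below they are Cdkn1a, Dino, Plin4, Fkbp5, Mt2, Sult1a1, Ciart, Per3, Tef, Aspa, Opalin, Olig2, Atp2c2, Cpne9, Rarb, Bahcc1 and Sh3bp5. When only the 14519 genes without such an overlap were tested, edgeR called 2, Gjb6 and Ugt8a, each at an FDR of 0.0978, while Kirrel2, Lurap1l, Fgfr2 and Clspn stood at an FDR of 0.11. Fgfr2 also overlaps Ctbp2 on its own strand.

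The number of edgeR calls was sensitive to single libraries. It was 0 without saline replicate 2, without ethanol replicate 3 or without ethanol replicate 5 (1281, 1881 and 1718 genes at an unadjusted p under 0.05 against 2065 with all libraries), 1 without saline replicate 4 or 5, 13 without ethanol replicate 2, and 84 without ethanol replicate 4. DESeq2 called 77, 188 and 114 genes in the fits where edgeR called 0. In each of the 7 fits with 1 library left out, DESeq2's calls held all 11 genes. These fits reuse most of the libraries from which the 11 were called, so they are no independent check. With the mean log2 CPM of the striatal markers of each library as a covariate, edgeR called 0 genes (1541 at an unadjusted p under 0.05) and DESeq2 59, of which 6 are among the 11. In that fit the log2 fold change of Lrrc8a was 0.52, of Gjb6 0.60, of Mfsd2a 0.64, of Ugt8a −0.41, of Fgfr2 −0.38 and of Clspn −1.03.

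Genes of the glucocorticoid response were higher after ethanol as a list. Of 22 genes, 20 were higher and 2 lower, and the median log2 fold change was 0.40 against −0.00 for all genes tested. None passed edgeR's test, and 11 passed DESeq2's in the upward direction, beside 0.538% of all genes tested. The groups did not overlap, with ethanol higher, in 12 of the 22, beside 3.74% of all genes tested. Like the other lists, this one was chosen with earlier results of these data known, so these shares describe its members and do not test the list.

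Sgk1, a kinase that regulates ion transport and that glucocorticoids induce within hours, was at 97.5, 69.0 and 63.4 CPM after saline and at 97.3, 166, 156 and 161 CPM after ethanol. Ethanol replicate 2 was level with the highest saline library and far below the other 3 ethanol libraries, which lay close together, so the groups overlapped. The log2 fold change was 0.92 ± 0.19 (edgeR FDR 0.198, DESeq2 FDR 0.0343). Tsc22d3, which encodes the anti-inflammatory leucine zipper GILZ, was at 62.6, 58.6 and 44.0 CPM and at 78.6, 86.7, 109 and 93.9 CPM, without overlap (0.74 ± 0.13, edgeR FDR 0.145, DESeq2 FDR 1.98e-05).

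The lipid droplet coat gene Plin4 had the largest difference of the list after Cdkn1a. It was at 16.5, 31.7 and 14.7 CPM after saline and at 32.9, 48.1, 50.9 and 64.0 CPM after ethanol. Saline replicate 4 was nearly as high as ethanol replicate 2, and the log2 fold change was 1.23 ± 0.27 (edgeR FDR 0.221, DESeq2 FDR 0.0923). Map3k6, a stress kinase that lies upstream of the JNK and p38 kinases, was at 3.21, 4.18 and 2.63 CPM and at 5.09, 5.71, 7.12 and 6.85 CPM, without overlap (0.90 ± 0.18, edgeR FDR 0.184, DESeq2 FDR 0.000521).

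Fkbp5, a co-chaperone that restrains the glucocorticoid receptor, was at 65.8, 77.8 and 59.9 CPM after saline and at 78.6, 83.2, 91.8 and 109 CPM after ethanol. Its lowest ethanol library stood only just above its highest saline library, and it passed DESeq2's test but not edgeR's (0.42 ± 0.12, DESeq2 FDR 0.0537, edgeR FDR 0.370). The sulfotransferase gene Sult1a1 differed by 0.66 ± 0.14, the kinase gene Pdk4, which holds back pyruvate oxidation, by 0.47 ± 0.14 and the transcription factor gene Klf15 by 0.41 ± 0.08, all without overlap between the groups. With the striatal score as a covariate, Pdk4 differed by 0.75 and Klf15 by 0.27, and without saline replicate 5 Pdk4 differed by 0.32. The receptor itself, Nr3c1, was the 1 list gene whose groups did not overlap in the other direction, at 96.3, 93.1 and 102 CPM after saline and 91.0, 91.2, 86.7 and 79.0 CPM after ethanol (−0.16 ± 0.06, edgeR FDR 0.585), and the mineralocorticoid receptor gene Nr3c2 differed by −0.13.

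The metallothioneins Mt1 and Mt2, small proteins that bind zinc and that both metals and glucocorticoids induce, were on this list as well. Mt2 was at 83.8, 111 and 92.4 CPM after saline and at 120, 131, 156 and 146 CPM after ethanol (0.53 ± 0.11, edgeR FDR 0.198, DESeq2 FDR 0.00112). Mt1 was at 136, 174 and 133 CPM and at 177, 211, 212 and 220 CPM (0.48 ± 0.10, edgeR FDR 0.215, DESeq2 FDR 0.00323). In both genes saline replicate 4 was the highest saline library and ethanol replicate 2 the lowest ethanol library, and the groups did not overlap. The brain form Mt3 differed by 0.12, the metal sensor Mtf1 by −0.03 and the zinc exporter Slc30a1 by −0.16 on the log2 scale, none past a test, and the median of the 11 genes of metallothioneins and zinc handling was −0.02.

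Of the 17 circadian clock genes tested, 14 were higher and 3 lower, with a median log2 fold change of 0.16, and 4 passed DESeq2's test upward, beside 0.538% of all genes tested. Per2, a repressor in the clock's loop, was at 25.6, 29.8 and 24.0 CPM after saline and at 43.9, 44.4, 35.9 and 35.7 CPM after ethanol. Per2 stood higher in every ethanol library than in every saline library, with ethanol replicates 2 and 3 the highest (0.60 ± 0.10, edgeR FDR 0.145, DESeq2 FDR 9.70e-05). Ciart, a further repressor of CLOCK and BMAL1, was at 6.74, 10.1 and 7.39 CPM and at 9.31, 15.0, 11.9 and 14.2 CPM, so saline replicate 4 and ethanol replicate 2 overlapped (0.65 ± 0.18, edgeR FDR 0.367, DESeq2 FDR 0.0385, and 0.35 with the striatal covariate).

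Per3 differed by 0.26 ± 0.07 (DESeq2 FDR 0.0544) and Tef, a clock output factor, by 0.19 ± 0.05 (DESeq2 FDR 0.0911), both without overlap between the groups. The activators went the other way in value, with Bmal1 at 29.0, 26.1 and 30.4 CPM after saline and 26.7, 24.4, 19.4 and 23.4 CPM after ethanol (−0.28 ± 0.10) and Npas2 at −0.23 ± 0.07, neither past a test, while Clock differed by −0.01. Per1, on both lists, was at 59.7, 63.1 and 45.0 CPM and at 59.0, 88.2, 65.1 and 65.7 CPM, with overlap (0.32 ± 0.14, edgeR FDR 0.631).

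**Figure D3:**
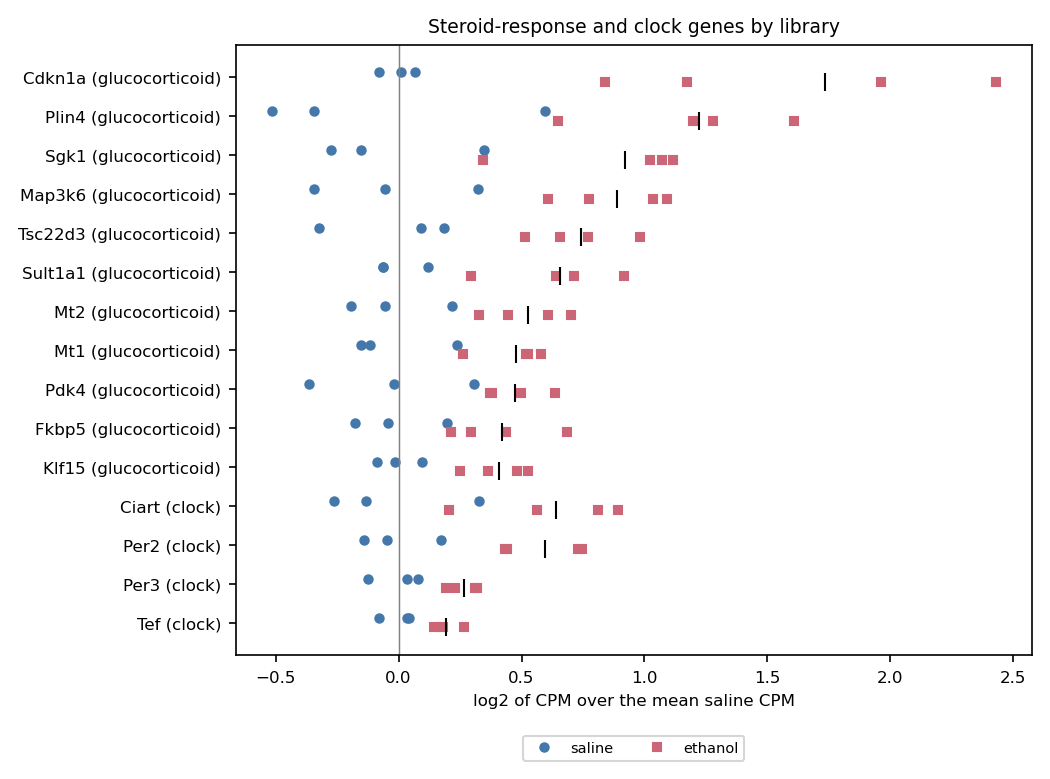
log2 of CPM over the mean saline CPM (horizontal axis) for the genes of the glucocorticoid and clock lists that passed DESeq2's test, with 1 circle per saline library (n = 3), 1 square per ethanol library (n = 4) and a vertical tick at the log2 ratio of the group means. Ethanol replicate 2 of Sgk1 lies at the top of the saline circles, and the groups are apart in every other gene except Ciart.

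Cdkn1a, which encodes the cell cycle inhibitor p21 and answers to both p53 and glucocorticoids, had the largest log2 fold change of the listed genes that passed DESeq2's test. It was at 6.73, 7.0 and 6.33 CPM after saline and at 12.0, 15.1, 36 and 26.0 CPM after ethanol. The saline libraries were nearly equal, while the ethanol libraries differed widely, with replicate 4 the highest and replicate 2 the lowest, and the groups did not overlap. The log2 fold change was 1.74 ± 0.32 (DESeq2 FDR 0.00848), and edgeR's test did not call it (FDR 0.172).

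Dino, a non-coding RNA transcribed from the opposite strand of Cdkn1a, was at 0.845, 0.895 and 0.698 CPM after saline and at 1.44, 2.14, 3.62 and 3.53 CPM after ethanol (1.73 ± 0.32, DESeq2 FDR 8.47e-05, edgeR FDR 0.172). Its counts were 0.101 to 0.141 times those of Cdkn1a in all 7 libraries and 0.116 to 0.135 times in the cortex, but 0 to 0.0189 times in the strand-marked libraries of the vHPC, DS and VS, so the value of Dino cannot be told apart from reads of Cdkn1a. Of the other 14 genes of the p53 list none passed a test, with Mdm2 at 0.06, Ccng1 at 0.08, Bax at −0.03 and Bbc3 at −0.35 on the log2 scale.

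Besides Ugt8a and Fgfr2, several genes of oligodendrocytes were lower after ethanol. Of the 15 myelin genes, 14 were lower, with a median log2 fold change of −0.18, and 3 passed DESeq2's test, beside 0.534% of all genes tested in that direction. The summed level of the list was 9334, 10761 and 9917 CPM after saline and 7938, 8407, 11291 and 9009 CPM after ethanol. Ethanol replicate 4 was the highest of all 7 libraries, so the groups overlapped.

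Aspa, which encodes the enzyme that splits N-acetylaspartate for lipid synthesis, was at 23.1, 26.2 and 25.2 CPM after saline and at 16.8, 16.7, 20.0 and 17.2 CPM after ethanol, without overlap (−0.49 ± 0.08, edgeR FDR 0.143, DESeq2 FDR 0.000133). Opalin, a membrane protein of central myelin, was at 31.6, 33.6 and 35.9 CPM and at 18.8, 21.7, 30.0 and 28.0 CPM, with ethanol replicates 4 and 5 close to the saline libraries (−0.45 ± 0.14, edgeR FDR 0.445, DESeq2 FDR 0.10). The abundant structural genes Mbp and Mobp differed less, by −0.16 ± 0.10 and 0.08 ± 0.15, neither past a test.

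Of the 9 genes of oligodendrocyte precursors, 2 passed DESeq2's test downward, beside 0.534% of all genes tested, and 7 were lower, with a median of −0.14. Olig2, a transcription factor of the lineage, was at 32.9, 32.3 and 28.7 CPM after saline and at 24.3, 25.5, 23.1 and 25.8 CPM after ethanol, without overlap (−0.34 ± 0.07, edgeR FDR 0.198, DESeq2 FDR 0.00672). Enpp6, which marks cells newly committed to myelination, was at 17.0, 20.9 and 17.2 CPM and at 12.5, 12.0, 15.6 and 12.8 CPM, without overlap (−0.47 ± 0.11, DESeq2 FDR 0.0147). Pdgfra and Sox10 differed by −0.00 and −0.03.

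In galactolipid and sphingolipid synthesis, 9 of 14 genes were lower, with a median of −0.03. Next to Ugt8a, Fa2h, whose enzyme hydroxylates the fatty acid of the same lipids, was at 53.4, 64.3 and 58.9 CPM after saline and at 42.9, 45.0, 47.5 and 44.9 CPM after ethanol (−0.38 ± 0.07, edgeR FDR 0.165, DESeq2 FDR 0.000747). All 4 ethanol values of Fa2h lay below all saline values. Enzymes shared with other cells differed little, with Sptlc1 at −0.04, Degs1 at 0.01 and Ugcg, which adds glucose in place of galactose, at −0.11 on the log2 scale.

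With the striatal score as a covariate, the median of the myelin list was −0.06 and that of the precursor list −0.03, and without ethanol replicate 4 the precursor median was −0.07. In the covariate fit, Aspa differed by −0.41, Fa2h by −0.39, Olig2 by −0.38 and Enpp6 by −0.32.

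**Figure D4:**
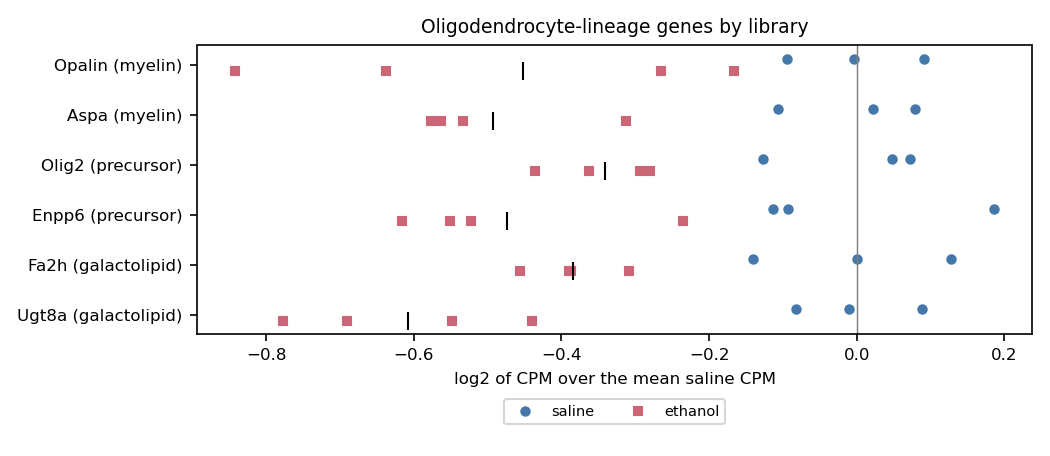
log2 of CPM over the mean saline CPM (horizontal axis) for 6 oligodendrocyte-lineage genes that passed edgeR's or DESeq2's test, with 1 circle per saline library (n = 3), 1 square per ethanol library (n = 4) and a vertical tick at the log2 ratio of the group means. The groups are apart in all 6 genes, and in Aspa and Enpp6 a single ethanol square lies nearer the saline circles than the rest.

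The largest falls among DESeq2's calls whose mean reached 50 counts and whose groups were apart were in genes of low or regionally uneven level. Nts, the neuropeptide neurotensin, was at 8.76, 7.97 and 4.15 CPM after saline and at 0.913, 3.22, 2.2 and 1.22 CPM after ethanol (−1.88 ± 0.37, edgeR FDR 0.184, DESeq2 FDR 0.0458). Rxfp1, the relaxin receptor, was at 17.3, 14.9 and 8.69 CPM and at 2.51, 7.37, 5.11 and 4.12 CPM (−1.51 ± 0.30, DESeq2 FDR 0.0580). In both genes saline replicate 5 was the lowest saline library and ethanol replicate 2 the lowest of all.

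Tshz2, a zinc finger factor of patterned neurons, was at 68.4, 61.6 and 33.1 CPM after saline and at 15.7, 28.3, 20.6 and 20.5 CPM after ethanol, again with saline replicate 5 next to the ethanol libraries (−1.35 ± 0.23, edgeR FDR 0.145, DESeq2 FDR 0.00564). Vwc2l differed by −1.17 ± 0.22 and Tekt5 by −0.86 ± 0.19. Slfn2 was at 3.08, 1.63 and 1.40 CPM after saline and at 0.548, 1.34, 0.949 and 0.981 CPM after ethanol (−1.09 ± 0.32, and −0.66 without saline replicate 2, its highest library). These genes were not higher in the saline DS than in the saline dHPC, their ratios being 0.79 for Nts, 0.44 for Rxfp1, 0.27 for Tshz2, 0.67 for Vwc2l, 0.67 for Slfn2 and 0.78 for Tekt5. In Nts, Rxfp1, Tshz2 and Vwc2l alike, replicate 5 was the lowest of the acute saline libraries. In the chronic groups, these genes, Slfn2 and Tekt5 were highest in saline replicate 6 and next highest in ethanol replicate 6. Tshz2 was at 92.5 and 80.4 CPM in these libraries and at 17.4 to 33.4 CPM in the other chronic ones. Rxfp1 was at 25.2 and 16.6 CPM against 4.21 to 8.86 CPM. The source of this shared pattern was not tested.

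Genes high in the striatum formed part of the falls. Of DESeq2's 140 falls, 14 (10%) were at least 4-fold higher in the saline DS, and of its 141 rises 0 were, beside 1.43% of all genes tested. Dach1, a transcriptional repressor, was at 12.2, 12.4 and 8.98 CPM after saline and at 7.01, 5.82, 6.06 and 4.20 CPM after ethanol (−0.96 ± 0.17, DESeq2 FDR 5.05e-05), and its saline DS level was 7.86 times that of the saline dHPC. With the striatal covariate Dach1 differed by −0.60. The retinoic acid receptor gene Rarb, a member of the striatal list, differed by −0.71 ± 0.21 and was 8.01 times as high in the DS. With the striatal covariate it differed by −0.08, but the covariate is made in part of Rarb itself, so this value is no check of the gene.

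The largest rises under the same rule were Cdkn1a, Dino, Atp2c2, Plin4 and 4 others. Atp2c2, a calcium and manganese pump of the secretory pathway, was at 0.828, 1.54 and 1.2 CPM after saline and at 2.03, 2.22, 2.7 and 4.18 CPM after ethanol (1.24 ± 0.29, DESeq2 FDR 0.00672, and 0.82 with the striatal covariate). Cpne9, a calcium-dependent membrane-binding protein, was at 9.58, 12.2 and 16.9 CPM and at 23.9, 21.3, 28.0 and 21.0 CPM (0.87 ± 0.17, edgeR FDR 0.184, DESeq2 FDR 0.000150). Both were without overlap, with the saline values of Cpne9 spread more widely than its ethanol values. Cpne9 was 6.02 times as high in the saline cortex as in the saline dHPC.

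Ethanol's direct targets and other pathways of interest gave few calls. Of the 12 GABA-A receptor genes 11 were lower, with a median of −0.10, and 1 passed DESeq2's test downward, beside 0.534% of all genes tested, while none passed edgeR's. No gene passed either test among the 18 ionotropic glutamate receptor genes (median −0.06), the 11 ethanol-sensitive potassium channel genes (0.04), the 8 opioid genes (−0.00), the 14 genes of neurotrophic factors and their receptors (−0.15), the 23 histone acetylation enzymes (−0.01), the 24 genes of cholesterol synthesis (0.00), the 13 tested genes of ethanol, acetaldehyde and acetate metabolism (0.08), the 24 activity-response genes (0.08), the 19 genes of the unfolded protein response and chaperones (0.07), the 10 microglial genes (0.00) or the 8 mural cell genes (−0.15).

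Among genes named in the study's text for this comparison, the chromatin gene Bahcc1 was at 25.7, 28.8 and 27.1 CPM after saline and at 22.2, 24.6, 19.8 and 21.8 CPM after ethanol (−0.30 ± 0.08, DESeq2 FDR 0.0814, edgeR FDR 0.352). Sh3bp5, a binding partner of BTK and JNK, was at 92.6, 109 and 98.3 CPM and at 119, 131, 107 and 145 CPM, with ethanol replicate 4 inside the saline range (0.33 ± 0.10, DESeq2 FDR 0.0923), and with the striatal covariate it differed by 0.06. Scube1, a secreted protein of the isocortical marker list, differed by 0.45 ± 0.11 (DESeq2 FDR 0.0293) and by 0.16 with the covariate. Of the 9 genes of that list, 3 were higher and 6 lower, with a median log2 fold change of −0.15.

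Counts on isoforms gave the same leading gene. Of 132914 isoforms tested, 2 passed edgeR's test (0.0015%), both of Lrrc8a and both higher. Lrrc8a-201 was at 11.4, 12.1 and 11.5 CPM after saline and at 16.7, 16.8, 16.8 and 15.6 CPM after ethanol (0.50 ± 0.06, edgeR FDR 0.0970), and Lrrc8a-202 followed it closely, as both share exons and therefore reads. DESeq2 called 936 isoforms of 289 genes (0.704% of isoforms tested), of which 227 genes were also gene-level calls of DESeq2 and 62 were not. All 27 tested isoforms of Fgfr2, all 13 of Fkbp5 and 12 of 13 of Sgk1 had the direction of the gene.

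The chronic groups share no library with the acute ones and had the same dose, so the values can be set side by side. EdgeR called 0 of 25958 genes between chronic ethanol and chronic saline (2136 at an unadjusted p under 0.05), and DESeq2 called 223 (0.859%). Chronic saline replicate 5 held striatal markers at 45.0% of the saline DS level. The other chronic saline libraries held 4.55% and 11.6%, and those after chronic ethanol 4.16% to 6.04%. These percentages cross kits and sequencers as above, while the contrast among the dHPC libraries does not. Values of single genes without chronic saline replicate 5 are given in parentheses or beside those with it. List medians and counts of shared signs are over all 6 chronic libraries.

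All 7 genes that rose and all 4 that fell in the acute comparison had the same sign in the chronic one. Mfsd2a was at 15.7, 15.0 and 14.0 CPM after chronic saline and 21.7, 19.6 and 25.8 CPM after chronic ethanol, a log2 fold change of 0.58 (also 0.58 without chronic saline replicate 5) beside 0.60 in the acute comparison. Gjb6 differed by 0.54 (0.45 without that library) beside 0.50, and Lrrc8a by 0.25 (0.22) beside 0.51. Ugt8a differed by −0.41 (−0.32 without that library) beside −0.61, and Fgfr2 by −0.53 (−0.41) beside −0.44.

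Clspn depended on that library. It was at 2.64, 9.27 and 2.05 CPM after chronic saline and 2.80, 1.78 and 1.74 CPM after chronic ethanol, and the log2 fold change was −1.13 with chronic saline replicate 5 and −0.15 without it. Dach1 differed by −1.53 with it and −0.42 without it, Rarb by −1.70 and −0.48, and Fbxo32 by −0.50 and −0.21.

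Of DESeq2's acute calls, 124 of 141 rises (87.9%) and 133 of 140 falls (95%) had the same sign in the chronic comparison, beside 57.9% of all genes with a higher and 59% of all with a lower acute value. Of these, 19 rises and 10 falls were also chronic calls of DESeq2 in the same direction. The 16 striatal markers were all lower after ethanol in both comparisons, with a median of −0.83 in the acute and −2.31 in the chronic one. Other marker lists were also one-sided in the chronic comparison. All 10 choroid plexus genes (median −1.39, beside 0.12 in the acute one) and all 6 ependymal genes (−0.95 beside −0.10) were lower. All 9 dentate granule genes were higher (0.58 beside 0.05). How far these imbalances entered the shared signs was not tested. Within the glucocorticoid list the chronic median was 0.22 beside 0.40. Plin4 differed by 1.18 (1.52 without chronic saline replicate 5) beside 1.23 and Fkbp5 by 0.37 (0.29) beside 0.42, whereas Sgk1 differed by −0.07 (−0.16) beside 0.92 and Cdkn1a by 0.16 (0.22) beside 1.74. The myelin list had a chronic median of −0.34, with all 15 genes lower, and the clock list one of 0.00.

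The difference between the acute and chronic effects was tested as an interaction over the 13 dHPC libraries. EdgeR called 0 of 26850 genes (1202 at an unadjusted p under 0.05) and DESeq2 2 (0.00745%), Col6a2 and Gm38947. The chronic effect on Cdkn1a was lower than the acute one by 1.59 ± 0.43 on the log2 scale, which did not pass the adjustment (edgeR FDR 0.969), and that on Sgk1 by 1.00 ± 0.40 (edgeR FDR 0.969). Of the largest acute falls, Nts differed by −0.40, Rxfp1 by −0.24, Tshz2 by 0.16 and Vwc2l by 0.06 in the chronic comparison, with standard errors of 0.74, 0.69, 0.66 and 0.67. Without chronic saline replicate 5 these values were −0.74, −0.61, −0.21 and −0.32, so the sign of Tshz2 and Vwc2l turned.

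**Figure D5:**
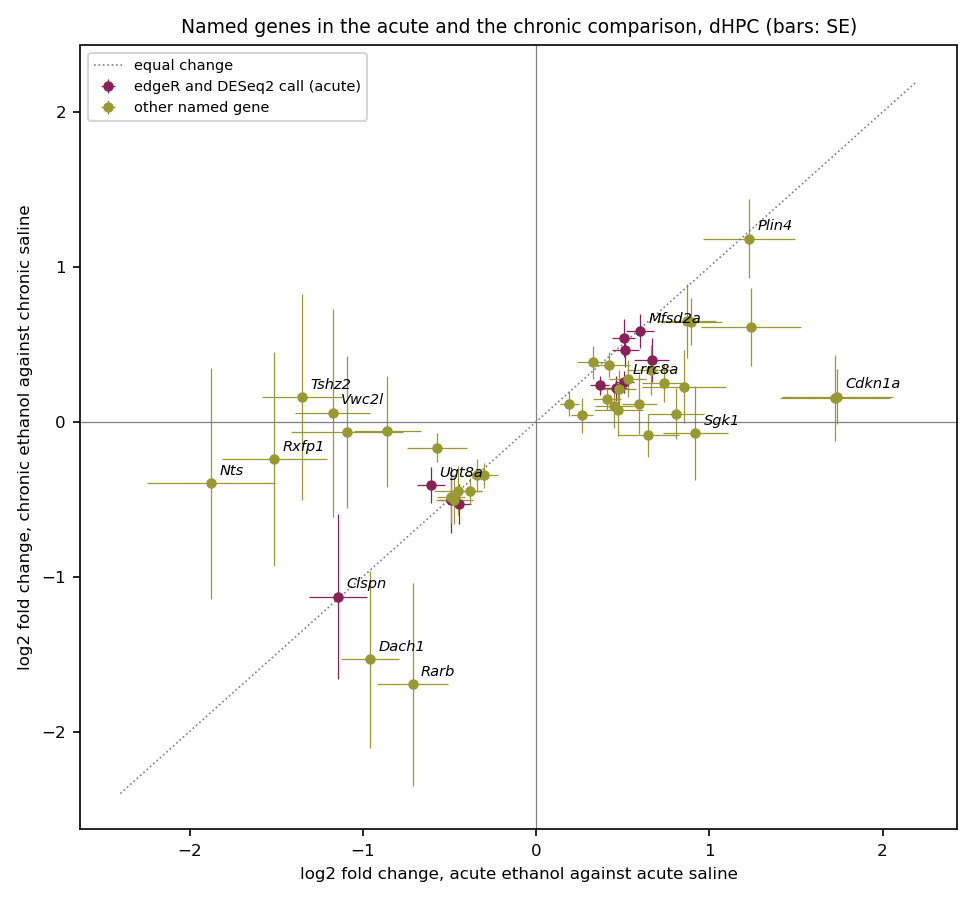
log2 fold change of ethanol against saline in the acute (horizontal axis) and chronic (vertical axis) comparison of the dHPC for 48 named genes, with bars for the SE and a dotted line of equal change. Points of the 11 edgeR calls lie in the quadrants of equal sign, Cdkn1a lies near 0 on the chronic axis, and Nts, Rxfp1, Tshz2 and Vwc2l have long chronic bars.

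Libraries of the other regions came in part from the same mice, so acute values there are not independent samples. Mfsd2a had log2 fold changes of 0.43 in the cortex (edgeR FDR 0.0757), 0.54 in the vHPC, 0.27 in the DS and 0.65 in the VS, and those of Lrrc8a were 0.15, 0.14, 0.29 and 0.59, none of them past the threshold. Ugt8a differed by 0.09 in the cortex and −1.03 in the vHPC and fell in the DS (−0.50, edgeR FDR 0.00716), and Fgfr2 fell in the DS (−0.51, edgeR FDR 0.00522) and was at −0.30 in the cortex. Cdkn1a rose by 0.46 in the cortex (edgeR FDR 0.0327) and by 1.10 in the DS (edgeR FDR 0.00522). In the cortex edgeR called 1.99% of the genes tested (0.818% higher and 1.17% lower), and in the DS 5.15% (2.05% and 3.1%).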

How the data were processed

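Poly(A) RNA was sequenced, per the labels and the study's methods, from a non-directional kit on an AVITI instrument as read pairs for the dHPC. The authors used Cutadapt (5.0) for trimming and STAR (2.7.10a) for alignment to GRCm39. They counted reads on Ensembl exons with featureCounts (2.0.6) under a reverse-stranded setting, so both reads of a pair can add to a count. They deposited raw counts per gene and per isoform without normalization or filter. A read with several positions or features was counted at each. Without molecular identifiers, PCR copies are counted as separate reads.

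Genes that reached 5 counts in 2 or more libraries of a group were tested with edgeR (4.0.16, limma 3.58.1, R 4.3.3) by its quasi-likelihood F test after TMM normalization, with an FDR below 0.1 as the call. DESeq2 (1.42.0) with the same filter was the alternative, since the study used it. "Rose" and "fell" are written of edgeR's calls only. The interaction of paradigm and treatment was fitted over 13 dHPC libraries. The tests were checked on simulated counts without tissue carry-over, which does not give their error rates in these libraries. Further alternatives were other size factors and filters, 1 fit over 4 groups, exclusion of antisense overlaps or striatal genes, a striatal covariate, a block on replicate number and the omission of single libraries. DESeq2 with libraries left out, with the covariate or without striatal genes, and the chronic alternatives, were chosen after seeing the data.

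Genes named are all edgeR calls, the 8 largest rises and falls among DESeq2's calls whose mean reached 50 counts and whose groups were apart, list members called by either test, and 4 genes of the study's text. Nr3c1, Nr3c2, Lrrc8c and other uncalled list members are given as values. The members and the 34 gene lists were chosen with earlier results of these data known. Tables were read with pandas (2.3.3) and numpy (2.4.6) in Python (3.11.15), with figures from matplotlib (3.10.9). Isoforms were tested in the same way, and no enrichment was computed. Some genes that the rule would name are not reported here.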

Additional observations from a re-analysis of the deposited data

Results flagged for a closer look

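In 3 of the 50 named genes, 1 of the 4 ethanol libraries stood far from the other 3 by Dixon's test, which chance gives in about 1 of 20 groups. Sgk1 was at 97.3 CPM in ethanol replicate 2 against 156 to 166 CPM in the others. Aspa was at 20.0 CPM in ethanol replicate 4 against 16.7 to 17.2 CPM, and Lurap1l was at 27.6 CPM in the same library against 32.6 to 33.3 CPM, in both genes towards the saline libraries.

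In 2 genes the acute and the chronic effect differed by DESeq2's interaction test over the 13 dHPC libraries, both with an FDR of 0.0892, and neither by edgeR's (FDR 0.969). Col6a2, a chain of collagen VI, was at 4.43, 3.61 and 4.46 CPM after acute saline and 4.14, 4.58, 5.08 and 4.71 CPM after acute ethanol. After chronic saline it was at 5.22, 7.29 and 4.19 CPM, and after chronic ethanol at 2.39, 3.15 and 1.76 CPM, below every other dHPC library.

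Gm38947 had 6, 41 and 15 counts after acute saline and 0 counts in all 4 acute ethanol libraries. It had 0, 3 and 2 counts after chronic saline and 2, 24 and 78 counts after chronic ethanol, so the libraries of the last group differ more from each other than the groups do.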

How the results depend on the processing

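Against the 11 genes called by edgeR, the number called was 281 with DESeq2 and 253 with no low-count filter, 5 with all 4 dHPC groups in 1 fit (4 of them among the 11), 2 without genes that overlap another on the other strand and 0 with the striatal covariate, and it ran from 0 to 84 with 1 library left out. DESeq2 called 59 with the covariate and 267 without genes at least 4-fold higher in the saline DS, and, with saline replicates 2, 4 and 5 and ethanol replicates 2, 3, 4 and 5 left out in turn, 77, 109, 188, 301, 188, 547 and 114. The cause of these differences was not tested. EdgeR called 11 genes with DESeq2's size factors, 9 with at least 10 counts in every library and 10 without striatal genes. For isoforms, edgeR called 2, DESeq2 936, edgeR with DESeq2's size factors 0, with no low-count filter 1045, with the replicate block 569, and with 1 library left out 0 to 501. DESeq2 called 2 genes in the interaction, where edgeR called 0 under each alternative run, and 223 in the chronic comparison, where edgeR called 0 with each library left out. The median of the striatal list turned to 0.017 with the striatal covariate, which is made of the same genes. Replicate numbers did not pair the libraries, since the deviations of equally numbered saline and ethanol libraries correlated at −0.00194, −0.0382 and 0.00387, and the gene fit with the replicate block, on 3 pairs, called 15 genes, of which 5 are among the 11. With 3 and 4 libraries a group, a gene or list that missed the threshold is not shown to be unaffected.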
